A study of Homo sapiens with 6 samples.

Results

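The genes described here encode the proteins of the cytosolic ribosome. They were chosen by name: protein-coding genes outside chromosome Y whose symbol is RPL or RPS followed by a number, with the letters of paralogs allowed, together with RPLP0, RPLP1, RPLP2 and RPSA. The rule found 85 of the 60651 genes in the count tables, 53 of the large subunit (RPL and RPLP) and 32 of the small subunit (RPS and RPSA). It used no measured value. Of the 85 genes, 84 had at least 10 counts in at least 3 libraries and were tested among 29086 genes. The remaining gene, RPL10L, a paralog of RPL10 known from the testis, had 0 counts in all 6 libraries. At totals of 64500589 to 102249336 counted pairs, this says that it was not detected at this depth.

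RNA came from SK-N-AS, an established human neuroblastoma cell line without MYCN amplification, that carries a tetracycline-inducible MYCN gene and the tetracycline repressor. The cells were single clones held under G418 and blasticidin, and both groups carried the same construct. The 3 control libraries, titled ETOH, and the 3 MYCN-induced libraries, titled Tet, were taken at 120 h, which the labels give as 5 days. Tetracycline was added to induce MYCN. The study compares the induced cells with a control treatment, which the title ETOH gives as ethanol. Ribosomal RNA was removed before sequencing, so the libraries hold messenger and noncoding RNA.

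Each ribosome joins a small subunit, which decodes the messenger RNA, and a large subunit, which forms peptide bonds. Their proteins are made in near equal numbers, and surplus proteins are degraded. Most of the messenger RNAs start with a cytosine followed by a run of pyrimidines, the terminal oligopyrimidine (TOP) motif, through which LARP1 and the kinase mTORC1 set their translation together. Proteins of the MYC family, to which MYCN belongs, are known as activators of ribosome production. A few members have a paralog encoded elsewhere in the genome, such as RPL22L1 for RPL22. Total RNA counts measure transcript abundance and not translation.

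The TOP motif was read from the transcript starts of RefSeq promoter entries on GRCh38.p14, which were found for 68 of the 85 genes with 84 starts. It was scored where the first base is C and at least 4 pyrimidines follow. By this rule 47 genes had a TOP start, or 69.1%, against 5.14% of the 27305 genes in the same table. The MYC binding motif CACGTG, which reads the same on both strands, lay within 250 bases before to 50 bases after a start in 5 of the 68 genes, or 7.35%, against 8.77% of all genes. Canonical members and paralogs are shown, since the only member past the test is a paralog with a TOP start. Each line holds 15 bases before the start and 15 from the start onward, in the direction of transcription, with the pyrimidine run that begins at the start in capitals where the motif is present. The windows are RPL22 at chr1:6199581-6199610 on the minus strand, RPL22L1 at chr3:170870181-170870210 on the minus strand, RPL36A at chrX:101390996-101391025 on the plus strand, RPL36AL at chr14:49620612-49620641 on the minus strand, RPS27 at chr1:153990747-153990776 on the plus strand and RPS27L at chr15:63157463-63157492 on the minus strand. The last 4 lines are RPL41 at chr12:56116618-56116647, RPS18 at chr6:33272060-33272089 and RPS9 at chr19:54200843-54200872, all on the plus strand, and RPLP0 at chr12:120201097-120201126 on the minus strand.
RPL22: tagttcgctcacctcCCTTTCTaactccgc
RPL22L1: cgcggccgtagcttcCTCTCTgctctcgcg
RPL36A: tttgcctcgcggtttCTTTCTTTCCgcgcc
RPL36AL: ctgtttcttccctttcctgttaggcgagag
RPS27: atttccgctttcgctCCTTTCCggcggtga
RPS27L: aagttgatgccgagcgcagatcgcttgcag
RPL41: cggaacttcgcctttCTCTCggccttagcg
RPS18: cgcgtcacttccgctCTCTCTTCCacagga
RPS9: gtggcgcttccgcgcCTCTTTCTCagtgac
RPLP0: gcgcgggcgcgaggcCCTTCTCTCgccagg
RPL22 and RPL22L1 both open with the motif, in runs of 7 and 6 pyrimidines. By this rule RPL36AL and RPS27L were scored without it and their canonical partners with it, and RPL7L1, RPL26L1 and RPL10L were scored without it as well. The score reads only from the annotated start base onward. In RPL36AL that base lies inside a pyrimidine run, so its score would differ with a start a few bases upstream.

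MYCN itself was at 30.3, 35.5 and 32.4 CPM in controls 1, 2 and 3 and at 211, 221 and 199 CPM in induced replicates 1, 2 and 3, where CPM are counts scaled to each library's normalized total. The groups were far apart, with a log2 fold change of 2.68 and an adjusted p of 4.1546e-05 by edgeR's quasi-likelihood test. All adjusted p-values are from that test with Benjamini-Hochberg adjustment over all 29086 genes. Induced replicate 3 stood apart on the first principal component with a score of 69.1, where induced replicates 1 and 2 had 14.4 and 13.1 and the controls lay between -40.3 and -25.9. Of 8 adrenergic neuroblastoma markers none passed the test, with 4 above 0 and 4 below. At an unadjusted p under 0.05, 2 of them were lower (ISL1 and DBH) and 0 higher. ISL1 had a log2 fold change of -0.55 without overlap (adjusted p = 0.0562), and DBH one of -0.85 (adjusted p = 0.147). Of all tested genes, 49.9% were above 0, and 8.13% were higher and 10.6% lower at an unadjusted p under 0.05. HAND2 was present at 349 to 559 CPM, while TH was at most 1.58 CPM. Of 7 mesenchymal markers 1 was lower (FN1) and none higher at an adjusted p under 0.05. By comparison, 2.38% of all tested genes were called lower and 1.02% higher. A log2 fold change above 0 was seen in 6 of the 7, with a median of 0.30. At an unadjusted p under 0.05, 4 were higher (VIM, FOSL1, FOSL2 and PRRX1). FOSL1 and FOSL2 reached 36.9 and 41.1 CPM in induced replicate 3, against 15.3 to 18.4 CPM in induced replicates 1 and 2. PRRX1 overlapped between the groups. The part of the neuroblastoma markers in the members' values was not tested. Of 4 markers of other cell types, PTPRC was at most 2.07 CPM and HBB, EPCAM and PECAM1 were at most 0.586 CPM.

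Ribosomal protein transcripts made up a slightly larger part of all counted pairs in the induced libraries, but not by every denominator. The 85 genes held 3.13%, 3.19% and 3.348% of all counted pairs in controls 1, 2 and 3, and 3.38%, 3.349% and 3.40% in induced replicates 1, 2 and 3. The means were 3.22% ± 0.114 and 3.38% ± 0.025 (SD, n = 3 each), a difference of 0.156 percentage points. The groups did not overlap, but control 3 and induced replicate 2 nearly touched. As a share of the counts on nuclear protein-coding genes, the values were 4.31%, 4.39% and 4.66% in the controls and 4.59%, 4.43% and 4.86% in the induced libraries, which overlap. After division of all counts by exon length, the share was 1.79%, 1.75% and 1.79% against 1.93%, 2.00% and 1.76%, which overlap too. Below, the share is again of all counted pairs. The large subunit genes held 2.08%, 2.10% and 2.20% in the controls against 2.22%, 2.26% and 2.27%, without overlap. The small subunit genes held 1.05%, 1.08% and 1.14% against 1.16%, 1.09% and 1.13%, with overlap. In bulk RNA, a change in the cells that make up a culture and a change in RNA per cell cannot be told apart. Shares, CPM and fold changes here are relative to each library's total, and RNA standards added from outside (spike-ins) had 0 counts. A rise of all transcripts per cell, which the paper describes as known for oncogenic MYCN levels, would therefore not be seen.

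Gene by gene, 1 member rose and none fell at an adjusted p under 0.05. Of all tested genes, 1.02% were called higher and 2.38% lower. At an unadjusted p under 0.05, 8 members were higher and 3 lower, where 8.13% of all genes were higher and 10.6% lower. DESeq2 also called 1 member higher and 0 lower. The members' fitted log2 fold changes had a median of 0.10, with quartiles at 0.03 and 0.17, and 70 of 84 were above 0. For comparison, the median was -0.00038 over all tested genes, 0.026 over the 14865 protein-coding genes and 0.048 over the 1910 genes that averaged 100 CPM or more, and the share of genes above 0 was 83.3% of the members, 55.2% of the protein-coding genes and 63.2% of those abundant genes. The differences were small: 74 of the 84 members lay within 0.3 of 0 on the log2 scale, and the median standard error was 0.09. Without induced replicate 3, the library that stood apart, the members' median was 0.06 and 61 of 84 were above 0. Without control 1 it was 0.06 with 65 above 0.

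**Figure D1:**
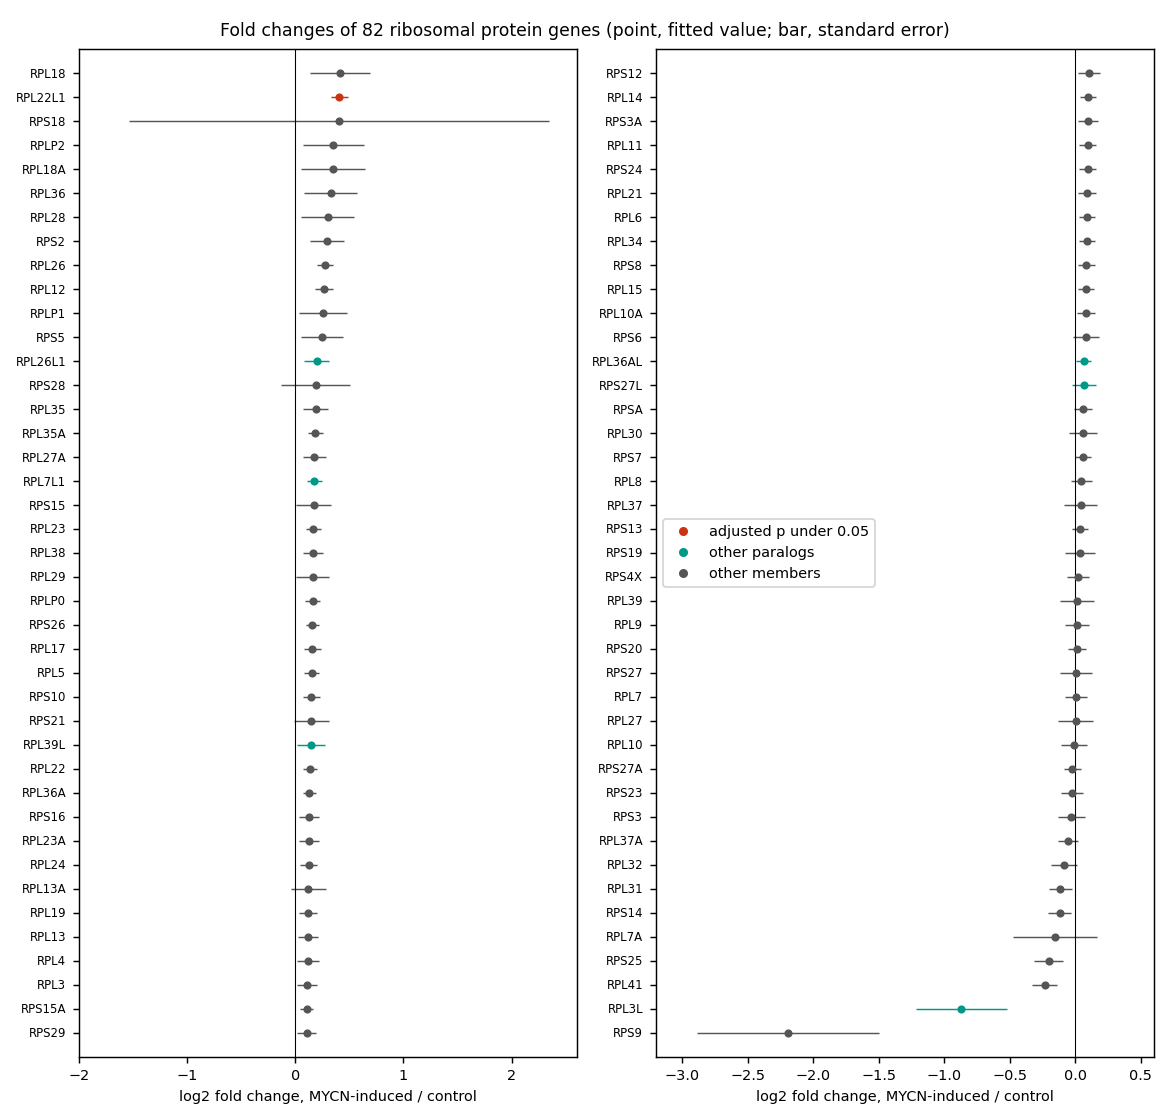
Fitted log2 fold changes (x axis, MYCN-induced over control) of 82 tested ribosomal protein genes, sorted from the highest at the upper left to the lowest at the lower right; points are the edgeR estimate and bars the standard error, and the panels have different x ranges. RPL22L1, in red, is the only gene with an adjusted p under 0.05, and 69 of the 82 points lie above 0.

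In 22 of the 84 tested members every induced library lay above every control, and in 3 every induced library lay below. Of all tested genes, 11.5% were without overlap in the higher direction and 14.7% in the lower. Among the 1910 genes that averaged 100 CPM or more, 440 were without overlap in the higher direction and 203 in the lower. Among the 14865 protein-coding genes, these counts were 2372 and 2161. The 22 included RPL5, RPL6, RPL7L1, RPL11, RPL12, RPL15, RPL17, RPL22, RPL22L1, RPL23, RPL26, RPL26L1, RPL34, RPL35A, RPL36A, RPL36AL, RPLP0, RPS10, RPS15A, RPS24 and RPS26, and 17 of the 22 belonged to the large subunit and 5 to the small subunit. The 3 were RPL3L, RPL41 and RPS25. The large subunit members had a median log2 fold change of 0.12, with 45 of 52 above 0, and the small subunit members a median of 0.08, with 25 of 32 above 0. The 47 members with a TOP start had a median of 0.10, against 0.10 in the 20 tested members with a promoter entry and no TOP start. Above 0 were 36 of these 47 and 19 of these 20. The 17 members without a promoter entry had a median of 0.11, with 15 above 0. This split cannot decide whether the motif matters, because the score depends on the exact annotated start base. Some members without a TOP start, such as RPL19 and RPS26, have a pyrimidine run within 15 bases of an annotated start.

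**Figure D2:**
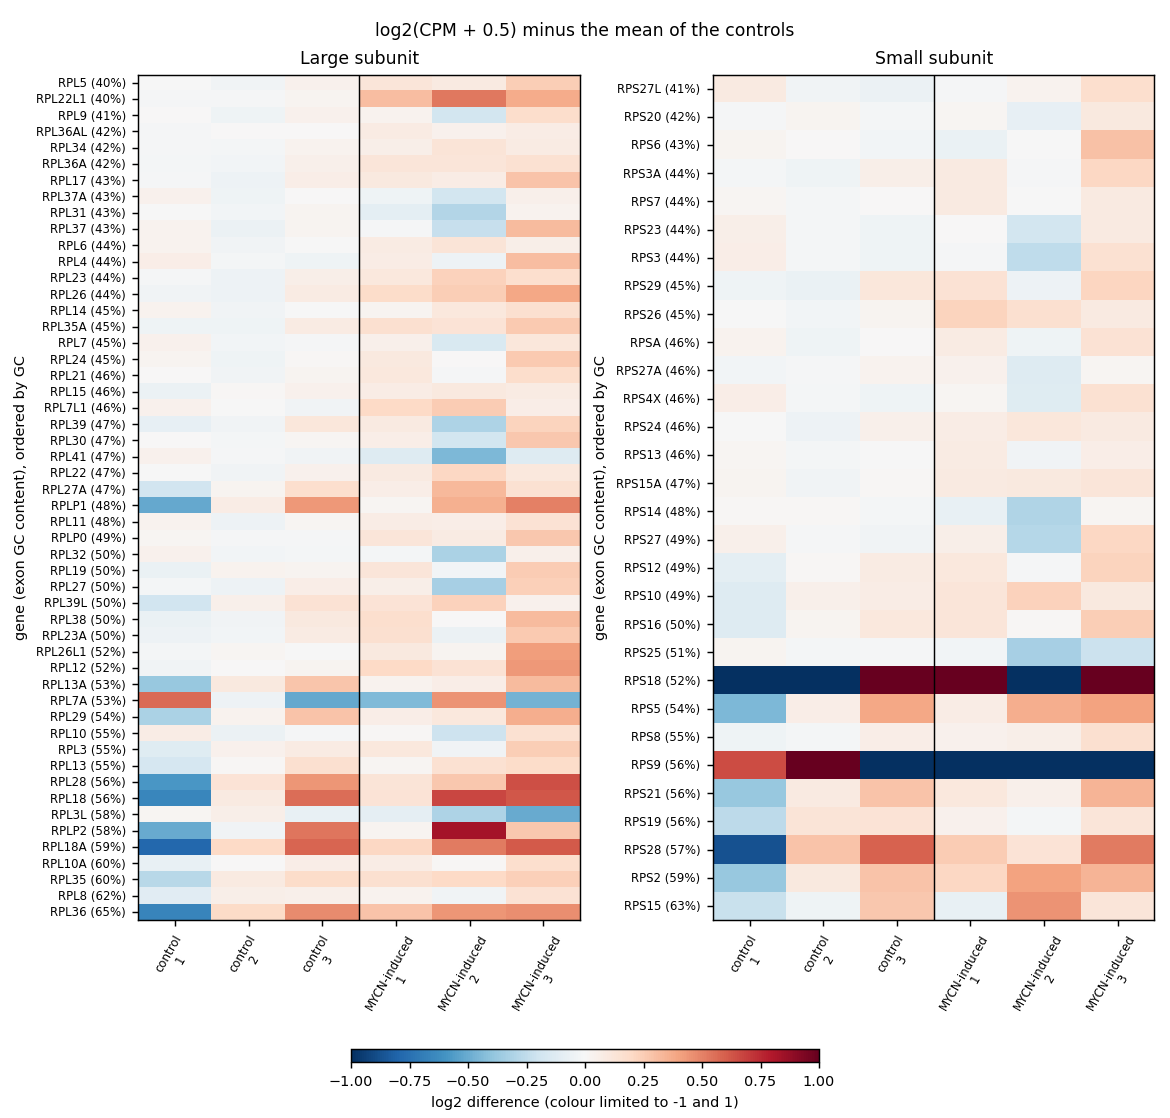
Difference of each library from the mean of the 3 controls, in log2(CPM + 0.5), for 52 large subunit members (left) and 30 small subunit members (right); rows are genes ordered by the GC content of their exons, columns are the 6 libraries, and colours stop at -1 and 1. The column of induced replicate 3 is the reddest, with a median difference of 0.17 against 0.08 and 0.04 in induced replicates 1 and 2, GC-rich genes near the bottom are blue in control 1, and RPS18 and RPS9 change far beyond the scale between libraries of 1 condition.

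RPL22L1 was the member that rose. It lies at chr3:170864875-170870208 on the minus strand of GRCh38 and encodes a paralog of RPL22, a large subunit protein that binds RNA outside the catalytic core. Its level was 48.2, 48.1 and 49.4 CPM in controls 1, 2 and 3 and 60.1, 70.2 and 63.0 CPM in the induced libraries. The groups did not overlap, and all 3 induced libraries were higher. The means were 48.6 ± 0.756 and 64.4 ± 5.21 CPM (SD, n = 3 each). The log2 fold change was 0.41 ± 0.08 (SE), or 1.33-fold, at an adjusted p of 0.034046. None of its exon bases overlap another gene, and the annotation names 0 processed copies of it. The call sat near the threshold: it was kept in 8 of the 16 alternative analyses, whose log2 fold changes ran from 0.34 to 0.46 and adjusted p-values from 0.00096 to 0.197, and it was lost on leaving out any library other than induced replicate 3 (adjusted p from 0.0625 to 0.197).

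Its canonical partner RPL22 was measured at 235, 230 and 242 CPM in the controls and 252, 272 and 253 CPM in the induced libraries. Here too the groups did not overlap, but the log2 fold change of 0.14 ± 0.06 did not pass the test (adjusted p = 0.298). The log2 ratio of RPL22L1 to RPL22 was -2.27, -2.25 and -2.28 in the controls and -2.06, -1.95 and -1.999 in the induced libraries. All induced ratios were higher, by 0.27 on average. The exact permutation test over the 6 libraries (two-sided) gave p = 0.1, the smallest value that 3 against 3 libraries allow, and 0.35 after adjustment over the 7 pairs of paralog and partner. On the TPM scale, which divides counts by exon length and scales each library to the same sum, RPL22L1 made up 31.8%, 32.2% and 31.7% of the pair in the controls and 35.2%, 37.0% and 36.1% in the induced libraries.

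The other paralogs gave smaller or less even differences. RPL7L1, a paralog of RPL7, was at 261, 252 and 247 CPM in the controls and 291, 302 and 265 CPM in the induced libraries, without overlap and with a log2 fold change of 0.18 (adjusted p = 0.230). Without induced replicate 3 its adjusted p was 0.0295, the only alternative in which it passed. RPL26L1 was at 19.4, 19.9 and 19.6 CPM against 21.0, 19.98 and 26.4 CPM, so that induced replicate 3 carried most of its log2 fold change of 0.20 (adjusted p = 0.415). RPL36AL was nearly flat, at 93.3, 94.2 and 94.2 CPM against 99.4, 96.9 and 98.7 CPM, a log2 fold change of 0.07 (adjusted p = 0.596).

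RPL39L was at 4.15, 4.99 and 5.36 CPM in the controls and 5.33, 5.73 and 4.95 CPM in the induced libraries, and RPS27L at 18.2, 16.7 and 16.4 CPM against 16.9, 17.5 and 19.3 CPM. Both overlapped between the groups, with log2 fold changes of 0.14 (adjusted p = 0.616) and 0.07 (adjusted p = 0.757). RPL3L, a paralog of RPL3 known from skeletal and heart muscle, was close to absent, at 0.373, 0.395 and 0.316 CPM in the controls and 0.308, 0.193 and 0.106 CPM in the induced libraries. All 3 induced values were lower, and the log2 fold change of -0.87 ± 0.35 did not pass (adjusted p = 0.235).

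Against their partners, the remaining 6 pairs had exact permutation p-values from 0.1 to 1. The difference of the log2 ratio, induced minus control, was -0.41 for RPL3L to RPL3 (p = 0.1, exact permutation, adjusted 0.35), 0.17 for RPL7L1 to RPL7, -0.09 for RPL26L1 to RPL26, -0.07 for RPL36AL to RPL36A, 0.13 for RPL39L to RPL39 and 0.07 for RPS27L to RPS27. Per exon length RPL36AL was the larger of its pair, with 77.0% to 78.3% of the summed TPM. The paralogs of the other 6 pairs held less of it than their partner in every library. In CPM RPL36AL was the smaller of its pair, at 93.3 to 99.4 CPM, with RPL36A at 153 to 173 CPM. The exon lengths, which join all annotated isoforms, were 676 bases for RPL36AL and 3965 bases for RPL36A. RPL36A shares 22.4% of its exon bases with other genes. Named processed copies of RPL36A held 34.8% of the counts of RPL36A and its copies, so the level of RPL36A is uncertain.

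**Figure D3:**
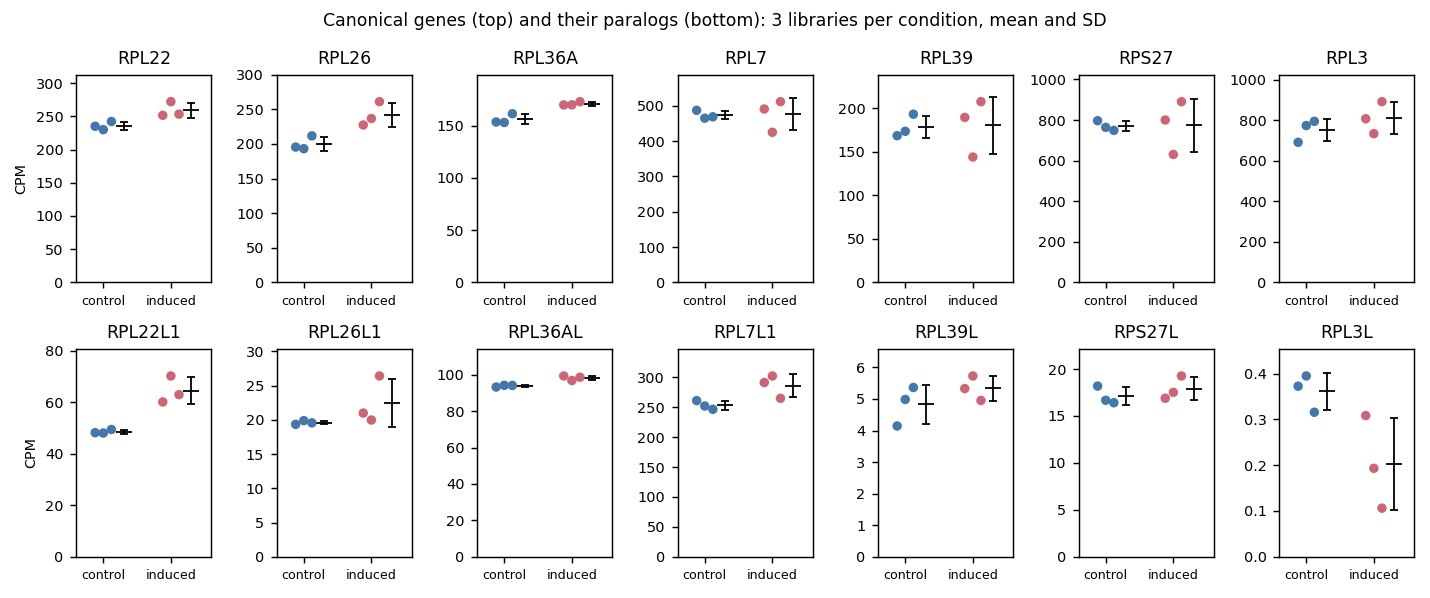
CPM of 7 canonical ribosomal protein genes (top row) and their paralogs (bottom row) in 3 control (blue) and 3 MYCN-induced (red) libraries; each point is a library, and the black mark and bar are the mean and SD. RPL22L1 is the only gene past the test, with controls at 48.1 to 49.4 CPM and induced libraries at 60.1 to 70.2 CPM.

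Among the canonical genes, none of 77 passed the test. RPL26, a large subunit protein near the exit of the peptide tunnel, had the lowest p-value of these: 196, 193 and 212 CPM in the controls and 227, 237 and 261 CPM in the induced libraries. Its groups did not overlap, and the log2 fold change was 0.27 ± 0.08 (adjusted p = 0.102). RPL12, a protein at the base of the stalk, was at 483, 494 and 503 CPM against 566, 546 and 668 CPM, with a log2 fold change of 0.27 ± 0.09 (adjusted p = 0.151). Its groups did not overlap either.

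The stalk of the large subunit, built from RPLP0 and the acidic proteins RPLP1 and RPLP2, recruits the elongation factors. RPLP0 was at 1366, 1337 and 1339 CPM in the controls and 1465, 1426 and 1626 CPM in the induced libraries, so every induced value was higher (log2 fold change 0.16, adjusted p = 0.282). RPLP1 was at 249, 372 and 479 CPM against 359, 454 and 502 CPM, and RPLP2 at 144, 200.3 and 298 CPM against 209, 365 and 247 CPM. Both overlapped, control 1 was the lowest library of each, and their fold changes did not pass (adjusted p = 0.602 and 0.563).

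RPL5 and RPL11 leave the nucleolus with the 5S ribosomal RNA and are known to bind MDM2 when ribosome assembly fails. RPL5 was at 574, 562 and 593 CPM in the controls and 626, 612 and 685 CPM in the induced libraries. RPL11 was at 1055, 998 and 1044 CPM against 1087, 1081 and 1139 CPM. In both genes each induced library was above each control, by 0.15 and 0.10 on the log2 scale, with adjusted p-values of 0.286 and 0.481.

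RPL41, which encodes a very short peptide of the large subunit, was the abundant member whose groups separated downward. It was at 174, 168 and 165 CPM in the controls and 154, 124 and 155 CPM in the induced libraries, a log2 fold change of -0.23 ± 0.10 (adjusted p = 0.245). RPS25, a small subunit protein, was at 7.59, 7.35 and 7.38 CPM against 7.27, 5.81 and 6.33 CPM, with a log2 fold change of -0.20 (adjusted p = 0.392). In both, induced replicate 2 was the lowest library.

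Levels per exon length differed widely between members. Among the highest mean TPM over the 6 libraries were 1226 for RPS27, 675 for RPL8, 659 for RPL11 and 649 for RPS2. The lowest among canonical genes were 5.83 for RPS9 and 7.74 for RPS25, and among paralogs 0 for RPL10L, 0.170 for RPL3L and 3.25 for RPS27L. Of the 77 canonical members, 67 lay between 50 and 500 TPM, 6 above and 4 below, with a median of 167 TPM. These levels rest on alignments that the file headers give as unique, whereas the study's methods list an option that also counts reads with several alignments, so the levels of members with many processed copies are uncertain. They also rest on exon lengths that join all annotated isoforms, from 639 to 9840 bases among the tested members. In 19 members over 10% of the exon bases are shared with another gene, led by RPL10 with 53.4% and RPS10 with 40.3%, and in 9 members named processed copies held over 10% of the counts of member and copies.

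RPS27 itself was at 797, 764 and 749 CPM in the controls and 800, 630 and 891 CPM in the induced libraries. RPL8 was at 810, 910 and 907 CPM against 896, 854 and 966 CPM, and RPS2 at 640, 895 and 1016 CPM against 962, 1106 and 1054 CPM. All of them overlapped between the groups, with adjusted p-values of 0.984, 0.806 and 0.373.

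RPS18 and RPS9, both proteins of the small subunit, changed between libraries of the same condition by more than any other members. RPS18, at chr6:33272075-33276511, had 318, 229 and 44238 counts in controls 1, 2 and 3 and 28349, 167 and 12368 counts in the induced libraries, or 3.04, 2.58 and 436 CPM against 437, 1.79 and 146 CPM. Its counts were thus high in control 3 and in induced replicates 1 and 3 and low in the other 3 libraries, in no relation to condition, and its log2 fold change was 0.40 ± 1.94 (adjusted p = 0.940). Leaving out 1 library at a time and changing the processing moved that value from -1.002 to 6.11. Counts of its 6 named processed copies stayed between 476 and 825 per library.

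RPS9, at chr19:54200809-54249003, was at 27.2, 43.0 and 4.01 CPM in the controls and 5.87, 6.22 and 4.14 CPM in the induced libraries. Controls 1 and 2 were high, and control 3 lay below every induced library. The log2 fold change of -2.19 ± 0.69 did not pass (adjusted p = 0.141), but without control 3 it was -2.70 with an adjusted p of 0.0187, so 1 library decides this call. Of the 10161 genes whose controls averaged 10 CPM or more, 6 differed at least 10-fold between the highest and the lowest control, or 0.059%: RPS18, RPS9, RN7SL3, DDX39B, the readthrough gene ATP6V1G2-DDX39B that shares DDX39B's exons, and H19. Near RPS18, VPS52 stayed between 19.8 and 23.3 CPM and RING1 between 9.98 and 14.2 CPM, while PFDN6 ran from 6.31 CPM in induced replicate 2 to 33.8 CPM in control 2. The cause was not tested, and it is uncertain whether these counts follow the amount of RPS18 and RPS9 transcript or how reads were assigned to these genes. These neighbours were named after their values were seen.

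RPL7A, a large subunit protein, differed in a milder way, at 559, 365 and 265 CPM in the controls and 278, 517 and 272 CPM in the induced libraries. Control 1 and induced replicate 2 were the high libraries, and the log2 fold change of -0.16 ± 0.32 had an adjusted p of 0.848. Without RPS18 and RPS9, the members' share of all counted pairs was 3.12%, 3.18% and 3.30% in the controls and 3.34%, 3.35% and 3.38% in the induced libraries, again without overlap.

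**Figure D4:**
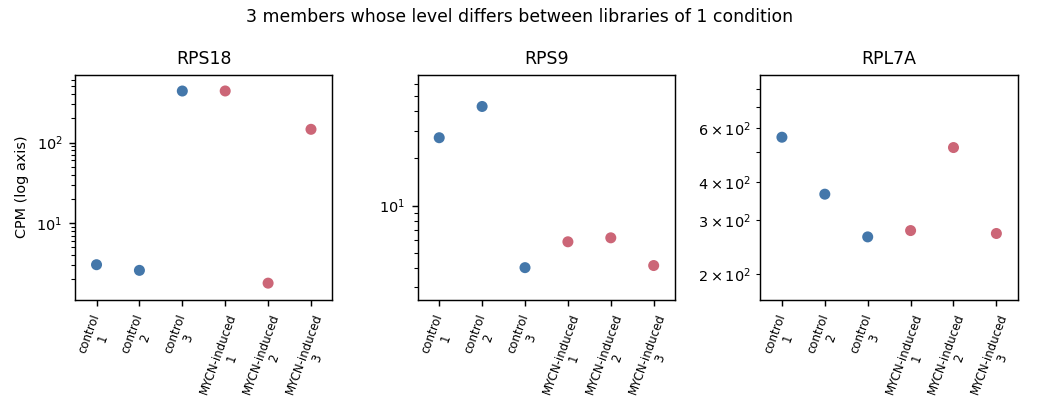
CPM on a log axis for RPS18, RPS9 and RPL7A in the 3 control (blue) and 3 MYCN-induced (red) libraries, 1 point per library, with a separate y range for each gene. RPS18 lies at 436, 437 and 146 CPM in 3 libraries and at 1.79 to 3.04 CPM in the others, which do not follow the condition.

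The spread among replicates was otherwise modest. The median coefficient of variation over the tested members was 3.97% in the controls and 9.27% in the induced libraries. In 19 members the control value exceeded 15%. These included RPS18, RPS9, RPLP1 and 15 of the 27 members with the highest exon GC content (50.5% to 64.6%, RPS18 and RPS9 left out). Control 1 fell below the mean of controls 2 and 3 by at least 0.5 on the log2 scale in 11 of 82 members, 10 of them among the 27 of highest GC content. RPL18, also of high GC content, was at 116, 194 and 270 CPM in the controls and 200.4, 290.3 and 281 CPM in the induced libraries, a log2 fold change of 0.41 ± 0.28 (adjusted p = 0.493).

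Over the 82 members, the Spearman correlation between exon GC content and the difference of control 1 from controls 2 and 3 was -0.524, and over all 29086 tested genes it was -0.471. These points share the same 3 libraries and are no replicates. The median difference was -0.34 in the 27 members of highest GC content, -0.003 in the next 27 and 0.00005 in the 28 of lowest. The median log2 fold change was 0.15, 0.10 and 0.09 in the same order, and with a correction for GC content the median of all tested members was 0.14. The part of GC content in single fold changes was not tested.

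**Figure D5:**
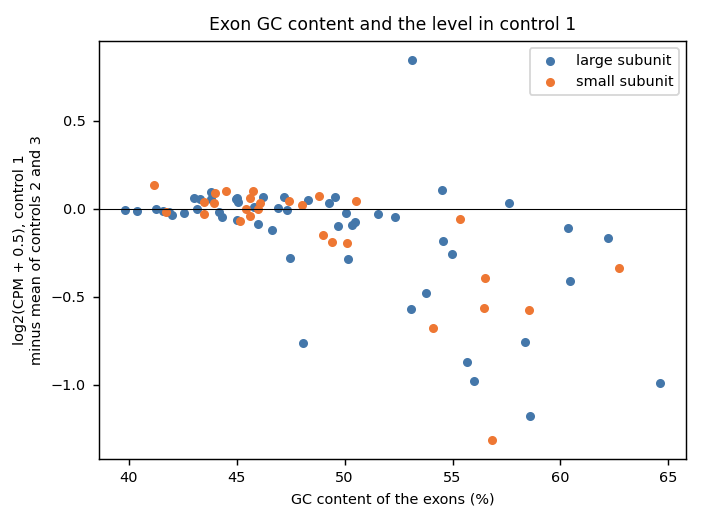
GC content of the exons (x axis, %) against the level in control 1 minus the mean of controls 2 and 3 in log2(CPM + 0.5) (y axis) for 80 ribosomal protein genes, blue for the large and orange for the small subunit, without RPS18 and RPS9. Genes of low GC content lie close to 0, many genes of high GC content (50.5% to 64.6%) lie below it, and RPL7A is the high point at 0.85.

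Genes that work with these proteins were counted by lists. Of the 3 ribosomal proteins outside the naming rule none passed. FAU was at 61.1, 91.9 and 102.1 CPM in the controls and 100.2, 99.1 and 112 CPM in the induced libraries, and RACK1 at 863, 891 and 903 CPM against 951, 839 and 1071 CPM. Both overlapped, and control 1 was again the lowest library for FAU. The 20 other TOP transcripts include elongation and initiation factors and, of the mesenchymal markers, VIM. Of these, 0 passed in either direction (6 higher at an unadjusted p under 0.05, where 8.13% of all tested genes were higher). Their median log2 fold change was 0.11, with 18 above 0 and 11 without overlap in the higher direction. Of the 1910 genes that averaged 100 CPM or more, 63.2% were above 0 and 440 were without overlap in the higher direction.

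Of 16 chaperones and loading factors of ribosomal proteins, 1 rose and 0 fell, with a median log2 fold change of 0.13 and 15 above 0. Of all tested genes, 1.02% were called higher, and 55.2% of the protein-coding genes were above 0. The gene that rose was LSG1, a GTPase that releases the export adaptor NMD3 from the large subunit. It was at 89.3, 86.8 and 89.9 CPM in the controls and 111, 111 and 113 CPM in the induced libraries, far apart and with little spread in either group. The log2 fold change was 0.33 ± 0.06, or 1.26-fold (adjusted p = 0.0265). Like RPL22L1, it kept the call in 8 of 16 alternatives, with adjusted p-values from 9.9469e-05 to 0.197. NMD3 was at 46.0, 45.1 and 45.0 CPM against 49.9, 54.6 and 50.3 CPM, without overlap (log2 fold change 0.19, adjusted p = 0.188). RRS1 and RPF2, which help to load the 5S particle, had log2 fold changes of 0.48 and 0.26 (adjusted p = 0.0653 and 0.0787).

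Of 15 regulators of TOP messenger RNAs around LARP1 and mTORC1, 0 passed in either direction by edgeR, with a median log2 fold change of 0.18. At an unadjusted p under 0.05, 6 were higher and 0 lower, where 8.13% of all tested genes were higher and 10.6% lower. LARP1 was at 520, 530 and 498 CPM in the controls and 651, 614 and 726 CPM in the induced libraries, without overlap (log2 fold change 0.36, adjusted p = 0.0516). EIF4EBP1, which restrains cap-dependent translation, was at 48.5, 53.1 and 56.4 CPM against 86.2, 73.8 and 133 CPM (log2 fold change 0.89, adjusted p = 0.0565). DDIT4, an inhibitor of mTORC1, was at 13.8, 17.4 and 18.7 CPM against 28.9, 22.4 and 137 CPM, so that induced replicate 3 was far above the other induced libraries (adjusted p = 0.158). MTOR itself stayed between 173 and 191 CPM. NMD3, RRS1, RPF2, LARP1, EIF4EBP1, DDIT4 and MTOR were named after their values were seen.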

How the data were processed

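The study removed ribosomal RNA from total RNA and sequenced read pairs. The authors deposited estimated counts per gene, that is, read pairs on exons with pairs over several genes shared in equal fractions. The file headers name featureCounts 1.6.4 on unique alignments with no strand option. The submitters' processing notes name STAR 2.7.1a, GRCh38 and featureCounts 1.5.1, and the study's methods list a strand option and the fractional counting of reads with several alignments. Which setting made the values was not settled, so overlapping genes on opposite strands and members with many processed copies are uncertain. Of the identifiers, 99.65% matched GENCODE 44, which gave the names. 81 of the 85 members had the same coordinates there.

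Counts were rounded, genes needed 10 counts or more in 3 or more libraries, and edgeR 4.0.16 (R 4.3.3) was fitted to all 6 libraries with TMM normalization and the quasi-likelihood test, with condition as the only term, at an adjusted p threshold of 0.05. The study used DESeq2, here version 1.42.0 as an alternative. The scripts were tested on simulated data, where the edgeR fit recovered 109 of 193 genes changed 2-fold (56.5%) and called 9 unchanged genes. Smaller changes, which most members had, were not simulated, so a gene that did not pass may still differ. CPM are TMM-normalized. Paralog ratios used log2(CPM + 0.5). Total counts ran from 64500589 to 102249336 per library. Groups and replicate numbers came from the labels. The study describes the replicates as independent experiments. P-values measure the spread between these libraries. All replicates differed by more than sampling noise (chi-square per gene from 12.1 to 145.6).

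The members and the lists of related genes were chosen with earlier results of these data known. Named genes are each member past the threshold, the 5 largest changes in each direction, the 5 highest and 5 lowest levels, stalk and 5S proteins, paralogs and their partners, members not tested, and related genes past the threshold or outside the naming rule. Genes named otherwise were chosen after their values were seen. Alternatives were library size only, upper-quartile normalization, DESeq2, no count filter, a minimum of 100 counts in every library, a replicate block, leaving out each library, processed copies added, a length correction (lowess, span 0.3), protein-coding genes only, another share denominator and a pseudocount of 0.1. The GC correction, the share without RPS18 and RPS9, and the use of the alternatives on the related lists were added after seeing the data. Protein sequences were not used here. A few genes under this rule are not reported here, by name or in the plots, but stay in all counts, shares and medians.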

Additional observations from a re-analysis of the deposited data

How the results depend on the processing

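The count of members higher (1) was 0 with library size only, with upper-quartile normalization and with the replicate block, and 0 to 2 on leaving out each library in turn: 2 without induced replicate 3 (RPL22L1 and RPL7L1) and 0 without any other. The count lower (0) was 0 to 1, with RPS9 called without control 3. RPL22L1 and LSG1 kept their direction in all 16 alternatives. The count of related genes higher (1) was 2 with upper-quartile normalization, 7 with DESeq2, 5 without a count filter, 2 with the replicate block, 2 with the length correction, 3 with protein-coding genes only, 5 with the GC correction and 0 to 8 on leaving out each library. The members' median log2 fold change (0.10) stayed above 0 throughout, at 0.069 with library size only, which also put the median of all genes at -0.034, at 0.14 with the GC correction, and at 0.059 to 0.13 on leaving out each library. The lowest values came without control 1 and without induced replicate 3.

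Over all genes, 298 higher and 692 lower calls became 904 and 1199 with DESeq2, 470 and 811 without a count filter, 596 and 900 with the GC correction, 227 and 404 with at least 100 counts in every library, 230 and 430 with protein-coding genes only, 18 and 72 without control 2, and 1060 and 1279 without induced replicate 3. The ratio of RPL3L to RPL3 differed by -0.76 in place of -0.41 with a pseudocount of 0.1, since RPL3L is near 0. The cause was not tested for the other changes. The replicate numbers share only a number: deviations of same-numbered libraries correlated at 0.216, -0.019 and 0.074, and the block gave 265 higher and 575 lower calls over all genes, with a members' median of 0.10. The depth leaves RPL3L at 9 to 39 counts per library.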
